A study of Mus musculus with 3 samples.

Results

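Dermal mast cells were described in single-cell 3′ RNA profiles of mouse dorsal skin, where they made up 154 of the 16604 cells kept after quality filtering. The cells were chosen by their measured UMIs (unique molecular identifiers, which count captured transcripts). A cell was counted as a mast cell when it carried at least 3 of the 7 transcripts Cpa3, Mcpt4, Cma1, Tpsb2, Kit, Fcer1a and Ms4a2, at least 5 UMIs summed over the 4 granule protease genes Cpa3, Mcpt4, Cma1 and Tpsb2, no UMI of the basophil protease gene Mcpt8, and at most 3 UMIs of the macrophage complement genes C1qa, C1qb and C1qc. Levels of these genes in the selected cells are therefore a description and not a result of a test.

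Mast cells are tissue-resident sentinels that mature locally under the Kit receptor and store proteases, histamine and heparin in secretory granules. Connective tissue mast cells of mouse skin carry chymases, tryptase and carboxypeptidase A, and release them when IgE bound to the high-affinity receptor is crosslinked or when Mrgprb2 binds cationic peptides. They also make prostaglandin D2 and chemokines that call monocytes and neutrophils into the skin.

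There were 3 libraries, 1 for each of 3 groups, all from male C57Bl/6 mice at 8 weeks of age in telogen (the resting phase of the hair cycle), with immune cells enriched on CD45+ magnetic beads after collagenase digestion. WT_Ctrl was wild-type skin without UVB, WT_UV was wild-type skin after 3 UVB exposures given once per 2 days, and RP_UV was skin of Rosa26-rtTA; Tre-Ptgs2 mice after the same 3 exposures, with both irradiated libraries taken at day 5. In RP mice doxycycline drives rat Ptgs2, which encodes Cox-2, in all tissues and not in mast cells alone, and to what extent transcripts of this transgene entered the mouse Ptgs2 count is unknown. The study describes each wild-type library as a single sample and RP_UV as coming from a single mouse, and whether the wild-type mice of these libraries received doxycycline is not given in the sources used here. With 1 library in a group, no difference had a replicate check and no p-value was computed, and every interval below covers counting error only. Sample names in the labels give WT_Ctrl and RP_UV one sequencing identifier and WT_UV another, so for WT_UV the run and the treatment cannot be told apart.

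The sequences shown are the 300 bases around the start of 5 genes that the results turn on, which are the 3 most abundant granule protease genes and the 2 genes of the IgE receptor whose levels differed most between libraries. They run from 250 bases before to 50 bases after the gene start, 5′ to 3′ on the strand of the gene, and come from RefSeq on GRCm38.p6, the mm10 build of the processing notes. Capitals mark GATAA or its reverse complement TTATC, the core of the motif bound by GATA factors, of which Gata2 is needed for mast cell identity. Cpa3 is carboxypeptidase A3 (chr3:20242132-20242431, minus strand), Mcpt4 the main chymotryptic chymase (chr14:56062261-56062560, minus strand), Cma1 the chymase also called Mcpt5 (chr14:55944626-55944925, minus strand), Fcer1a the IgE-binding alpha chain (chr1:173227180-173227479, minus strand) and Ms4a2 the signal-amplifying beta chain (chr19:11623670-11623969, minus strand).
Cpa3: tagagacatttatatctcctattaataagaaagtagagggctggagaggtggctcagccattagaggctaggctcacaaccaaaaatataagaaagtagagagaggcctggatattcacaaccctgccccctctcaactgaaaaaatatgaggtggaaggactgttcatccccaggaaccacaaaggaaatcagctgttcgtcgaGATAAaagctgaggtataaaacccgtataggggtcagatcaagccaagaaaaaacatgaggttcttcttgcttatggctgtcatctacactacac
Mcpt4: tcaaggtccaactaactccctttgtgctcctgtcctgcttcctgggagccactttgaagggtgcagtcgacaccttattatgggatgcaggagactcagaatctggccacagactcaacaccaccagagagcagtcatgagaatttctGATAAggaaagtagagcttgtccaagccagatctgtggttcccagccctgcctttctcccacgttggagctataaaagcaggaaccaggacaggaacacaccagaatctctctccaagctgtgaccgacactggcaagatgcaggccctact
Cma1: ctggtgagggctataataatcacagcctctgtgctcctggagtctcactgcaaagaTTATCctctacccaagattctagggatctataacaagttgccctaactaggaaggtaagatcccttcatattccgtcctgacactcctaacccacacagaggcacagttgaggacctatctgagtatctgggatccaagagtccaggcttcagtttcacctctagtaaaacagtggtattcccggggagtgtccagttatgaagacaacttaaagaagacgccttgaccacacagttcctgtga
Fcer1a: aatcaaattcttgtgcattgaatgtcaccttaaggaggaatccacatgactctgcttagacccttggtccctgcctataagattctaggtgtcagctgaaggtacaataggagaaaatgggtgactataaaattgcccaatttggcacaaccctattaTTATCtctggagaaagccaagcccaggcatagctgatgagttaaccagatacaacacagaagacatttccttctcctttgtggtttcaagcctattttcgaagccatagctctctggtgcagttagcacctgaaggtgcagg
Ms4a2: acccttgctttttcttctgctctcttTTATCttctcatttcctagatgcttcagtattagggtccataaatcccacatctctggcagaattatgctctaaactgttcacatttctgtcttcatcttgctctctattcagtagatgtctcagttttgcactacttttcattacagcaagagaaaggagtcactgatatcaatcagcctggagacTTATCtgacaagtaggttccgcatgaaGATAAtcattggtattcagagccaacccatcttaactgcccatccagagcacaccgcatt

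The Cpa3, Mcpt4, Cma1 and Fcer1a windows held 1 match each and the Ms4a2 window held 3. Of 32851 windows of this length in the same table, 25.4% held at least 1 match on either strand, and 10 of the 23 windows of the 20 leading mast cell genes did (17 of these genes matched by symbol). A match is a description of letters and does not show binding.

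To check the label against the cells, genes were ranked by their level in all mast cells over all other kept cells, in CPM (the UMIs of a gene scaled to a common total of UMIs for each set of cells). Because the rule chose these cells, the ranking is a description. Mcpt4 led at 37180 CPM against 10.1 CPM in the other cells, followed by Cpa3, Cma1 and Tpsb2, the 4 genes whose sum the rule reads. Of the 20 leading genes, 14 were not used by the rule. Mrgprb1, of the mas-related receptor family, stood at 1468 against 0.445 CPM and Mrgprb2, the receptor for cationic secretagogues, at 306 against 0.378 CPM. Cyp11a1, which makes pregnenolone from cholesterol, stood at 1440 CPM, Hs6st2, a heparan sulfate sulfotransferase, at 891 CPM, and the protease inhibitor gene Serpinb1a at 4567 CPM. Gata2 stood at 950 CPM, Hdc, the histidine decarboxylase that makes histamine, at 2665 CPM, and the vesicular amine transporter gene Slc18a2 at 598 CPM. Defining mast cell genes that the rule did not read were thus present, while Fcer1a was sparse in both wild-type libraries, as described further on.

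**Figure D1:**
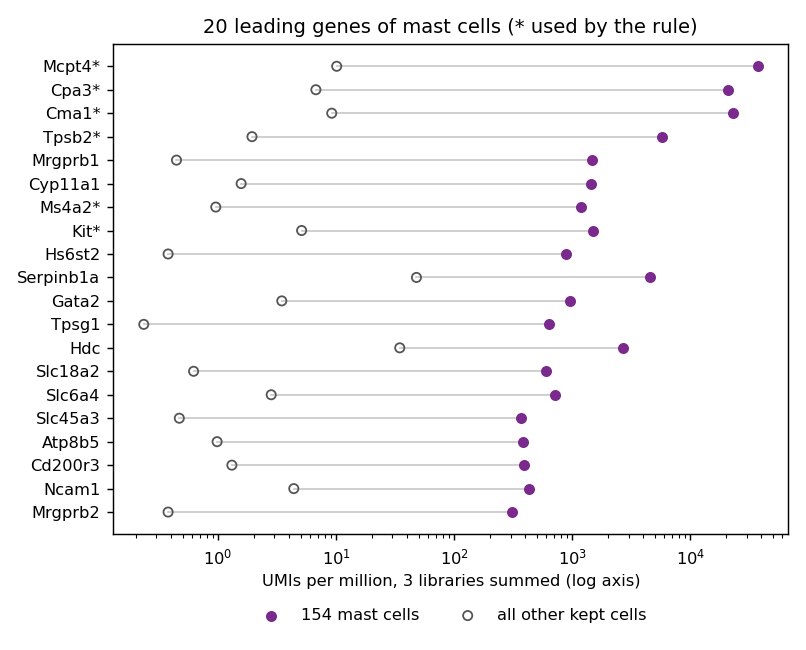
Levels of the 20 leading genes in the 154 mast cells (filled) and in all other kept cells (open), in CPM on a log axis, with the 3 libraries summed. Genes used by the rule carry an asterisk, and every gene shown lies more than 10-fold apart between both sets of cells.

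Mast cells were shallow cells in each library. Their median depth was 1008 UMIs in WT_Ctrl (range 507 to 7646). WT_UV mast cells had a median of 1598 UMIs (range 546 to 14260), and those of RP_UV a median of 1039 UMIs (range 506 to 6472). The other kept cells had medians of 4267, 10700 and 3796 UMIs. Summed over cells this gave 49882, 186504 and 51097 UMIs, so that 1 UMI was worth 20.1, 5.36 and 19.6 CPM and a count of 0 allows up to 60.1, 16.1 and 58.7 CPM. Library depth ran from 34985549 to 82722013 UMIs, and no deposited barcode had fewer than 500 UMIs, a limit near which mast cells lay, with 16 of 32, 18 of 88 and 14 of 34 under 1000 UMIs. The 3 libraries shared 8 to 11 barcodes pairwise, and 1 WT_UV mast cell had a barcode also present in RP_UV.

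The selected cells lay well above the threshold of 5 UMIs, in part because the limits on C1q and Mcpt8 removed cells near it. The granule protease sum of a WT_Ctrl mast cell was 32 to 501 UMIs (median 92). In WT_UV it was 21 to 784 UMIs (median 157), and in RP_UV 26 to 578 UMIs (median 89). The lowest selected cell therefore had 21 UMIs where 5 were required. Kept cells with a sum of 5 to 19 UMIs numbered 0, 4 and 6, and none of them was selected. Of cells outside, 11 in WT_UV and 4 in RP_UV carried at least 3 of the 7 genes with a sum under 5, the highest at 4 UMIs. The limit on C1q left out 2, 10 and 11 cells, and the limit on Mcpt8 left out 2 cells of WT_UV. Cells left out by these limits had median granule protease sums of 81.5, 100 and 82 UMIs, with minima of 71, 5 and 5. As a share of a cell's UMIs the granule proteases had medians of 11.3%, 8.02% and 8.62%.

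**Figure D2:**
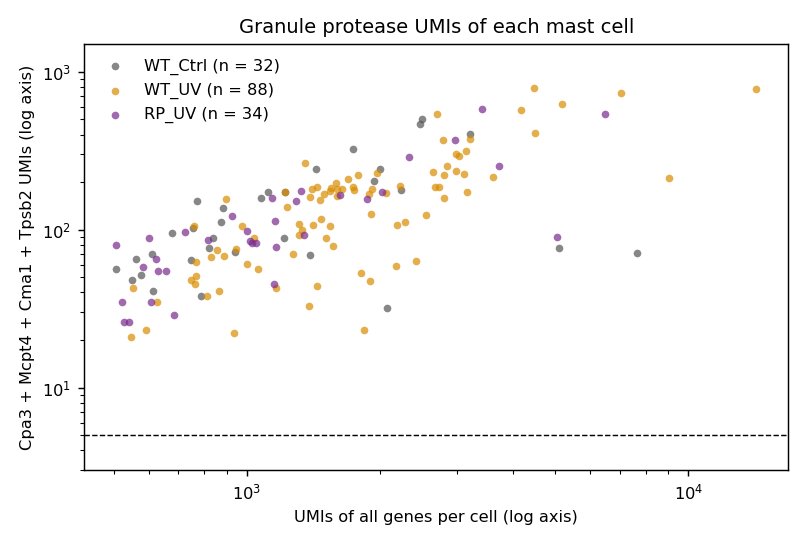
Summed UMIs of Cpa3, Mcpt4, Cma1 and Tpsb2 against all UMIs of each mast cell, both on log axes, with 1 point a cell and the threshold of 5 UMIs dashed. The 32 WT_Ctrl, 88 WT_UV and 34 RP_UV cells lie above 20 UMIs, and points spread upward to the right, with single deep cells of low sum in each library.

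UMIs of other cell types were few but not absent in the selected cells. Keratin transcripts of at least 5 UMIs were found in 1 WT_Ctrl and 1 RP_UV cell, T cell transcripts of at least 2 UMIs in 1 WT_Ctrl and 2 WT_UV cells, neutrophil transcripts in 1 RP_UV cell and endothelial or mural transcripts in 1 RP_UV cell. The 10 macrophage markers summed to 5232, 2745 and 4873 CPM against 17200, 15830 and 23500 CPM in the other cells, and most of this was Apoe, at 5112, 2429 and 4540 CPM. The defining macrophage genes were near 0, with 0, 3 and 0 UMIs of Csf1r, 0, 2 and 0 of Adgre1, 0, 10 and 0 of Mrc1 and 3, 14 and 2 of Lyz2. The 9 basophil markers summed to 3408, 3346 and 3699 CPM, but Mcpt8 was 0 by the rule and Gata2, Cyp11a1, Cd200r3, Il4 and Fcer1a also belong to mast cells. The mucosal and basophil proteases had 1, 4 and 1 UMIs in all. The 9 keratinocyte markers summed to 1143, 290 and 509 CPM against 8564, 3090 and 8623 CPM in the other cells. The 8 fibroblast markers summed to 80.2, 10.7 and 333 CPM against 7766, 89.8 and 2387 CPM in the other cells. The 8 endothelial or mural markers summed to 40.1, 16.1 and 724 CPM against 237, 67.2 and 814 CPM. T cell markers summed to 361, 343 and 196 CPM against 651, 855 and 162 CPM. In RP_UV mast cells the endothelial or mural sum (37 UMIs) thus came close to that of other cells. Of these 8 markers only 1, Tagln, had at least 10 UMIs over the mast cells of all libraries. The T cell sum of RP_UV mast cells (10 UMIs) stood above that of other cells, but all of it was Il7r, with the other 9 markers at 0. Markers of dendritic cells and of melanocytes or Schwann cells summed to at most 39.1 CPM. Of the 8 neutrophil markers, which include Hdc, 7, 7 and 4 were at 0. The part of these transcripts in the results was not tested, other than by leaving out the 2, 2 and 3 cells named first.

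To determine how the abundance of mast cells differed between groups, their share of kept cells was compared. Mast cells were 32 of 5309 cells in WT_Ctrl (0.603%, Wilson 95% interval 0.427 to 0.85). In WT_UV they were 88 of 5225 (1.68%, 1.37 to 2.07), and in RP_UV 34 of 6070 (0.56%, 0.401 to 0.782). The share in WT_UV was 2.79 times that in WT_Ctrl (1.87 to 4.18), and the share in RP_UV was 0.333 times that in WT_UV (0.224 to 0.493). The RP_UV and WT_Ctrl shares did not differ beyond counting error, with a ratio of 0.929 (0.574 to 1.5). WT_UV had deeper cells, and when they were thinned to the depth of WT_Ctrl, 67 of 4977 met the rule (1.35%, a ratio of 2.23). This thinning was set by the medians of all kept cells, 10557 UMIs in WT_UV and 4246 in WT_Ctrl. Mast cell medians lay closer, at 1598 and 1008 UMIs, so WT_UV mast cells were thinned further than their own depth differed. With only cells of at least 1000 UMIs the ratio was 4.39, from 16 of 5063 and 70 of 5048 cells. The limits on Mcpt8 and C1q fell unevenly on the libraries. Without them 34, 100 and 45 cells were selected in WT_Ctrl, WT_UV and RP_UV (0.64%, 1.91% and 0.741%). The RP_UV share was then 1.16 times that in WT_Ctrl and 0.387 times that in WT_UV. Ptprc, which encodes CD45, was detected in 11, 46 and 10 of the mast cells, and a share of bead-enriched cells is not a density in skin, since fewer cells in the tissue and fewer cells captured cannot be told apart.

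**Figure D3:**
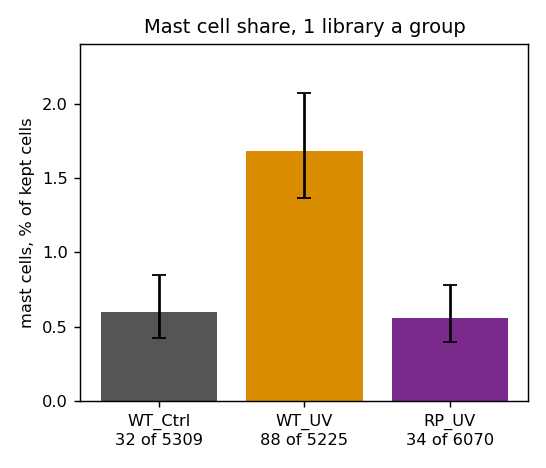
Mast cells as a percentage of kept cells in each library, with Wilson 95% intervals that cover counting error only. The WT_UV bar stands at 1.68%, above the intervals of WT_Ctrl (0.603%) and RP_UV (0.56%).

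For expression, UMIs of the mast cells of a library were summed, and a gene was called when its level differed 2-fold or more on the log2(CPM + 10) scale among genes with at least 20 UMIs in both libraries together. Of 1883 genes in WT_UV over WT_Ctrl, 262 were higher (13.9%) and 74 lower (3.93%). Of 1887 genes in RP_UV over WT_UV, 119 were higher (6.31%) and 257 lower (13.6%). On a scale set by the median ratio of abundant genes, which lowers log2 differences of this comparison by up to 0.24, the split was 70 to 368. Of 755 genes in RP_UV over WT_Ctrl, the pair with alike depth and a shared sequencing identifier, 94 were higher (12.5%) and 54 lower (7.15%). With every mast cell thinned to 500 UMIs the counts were 61 and 28, 47 and 49, and 22 and 10 in the same order. WT_UV mast cells held 186504 UMIs, against 49882 in WT_Ctrl and 51097 in RP_UV. A gene seen only in WT_UV thus met the limit of 20 UMIs at a lower CPM than one seen only in the other library. The filter of both comparisons with WT_UV therefore favours genes that are higher in WT_UV, and their splits lean that way. All comparisons share libraries with each other, and the counts of each gene group below are to be read against these percentages.

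The main granule proteases differed by less than 2-fold between libraries, apart from the tryptase Tpsb2. Mcpt4 stood at 35540 (33910 to 37240) CPM in WT_Ctrl, 37930 (37050 to 38820) in WT_UV and 36070 (34440 to 37750) in RP_UV. Cma1 stood at 24760, 20860 and 29790 CPM. Both were detected in all 154 cells. Tpsb2, the tryptase beta 2 gene of skin mast cells, was 9943 (9088 to 10860) CPM in WT_Ctrl, 4552 (4251 to 4869) in WT_UV and 5871 (5226 to 6575) in RP_UV. It was 2.18-fold lower in WT_UV than in WT_Ctrl (1.95 to 2.44) and was seen in 30 of 32, 72 of 88 and 30 of 34 cells. Its log2 difference of -1.13 ran from -1.58 to -0.99 over the alternatives, with the last value on the median-ratio scale. Cpa3 differed less, at 23480, 20440 and 18940 CPM. The remaining tryptase genes were low, with 41, 110 and 30 UMIs of Tpsg1 and 1, 9 and 3 UMIs of Tpsab1, which resembles Tpsb2 closely, so that the split of their reads is uncertain. Cma2, a chymase gene next to Cma1, had 0, 19 and 3 UMIs, of which the WT_UV count came from 16 cells. Of the 6 proteases with enough UMIs in WT_UV over WT_Ctrl, 1 was called lower and none higher (median log2 difference of -0.22), and none of 7 and none of 5 were called in the other comparisons.

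The synthesis genes of histamine and serotonin were higher in WT_UV than in WT_Ctrl, the former just past the threshold and the latter largely through 1 cell. Hdc stood at 1524 (1200 to 1907) CPM in WT_Ctrl, 3163 (2913 to 3429) in WT_UV and 1957 (1592 to 2380) in RP_UV, a ratio of 2.08 (1.63 to 2.67) for WT_UV over WT_Ctrl. It was detected in 19 of 32, 71 of 88 and 23 of 34 cells. The log2 difference of 1.05 was 0.51 to 1.20 over the alternatives and fell under 1 in 5 of them, with 0.8 when the deepest cell of each library was left out. After thinning each cell to 500 UMIs the shares of cells with Hdc were 46.9%, 61.4% and 52.9%, against 0.19%, 1.36% and 6.35% of other cells. Tph1, the rate-limiting enzyme of serotonin synthesis outside the brain, had 3, 61 and 11 UMIs, but 38 of the 61 in WT_UV came from 1 cell. Without the cell with the most UMIs in each library its log2 difference for WT_UV over WT_Ctrl was 1.48 in place of 2.26. The serotonin transporter gene Slc6a4 stood at 702, 788 and 470 CPM and Slc18a2 at 642, 649 and 372 CPM. Srgn, the serglycin core protein that holds granule content, stood at 4170, 3287 and 3875 CPM, so that these 3 genes differed by less than 2-fold. Ndst2, which sulfates heparin, stood at 441, 440 and 274 CPM, and Cd63, a granule membrane tetraspanin, at 1764, 1174 and 2348 CPM. In this list of 12 genes 2 of 8 were called higher in WT_UV over WT_Ctrl (Hdc and Tph1), none of 8 were called in RP_UV over WT_UV (median -0.62) and none of 6 in RP_UV over WT_Ctrl (median -0.34).

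**Figure D4:**
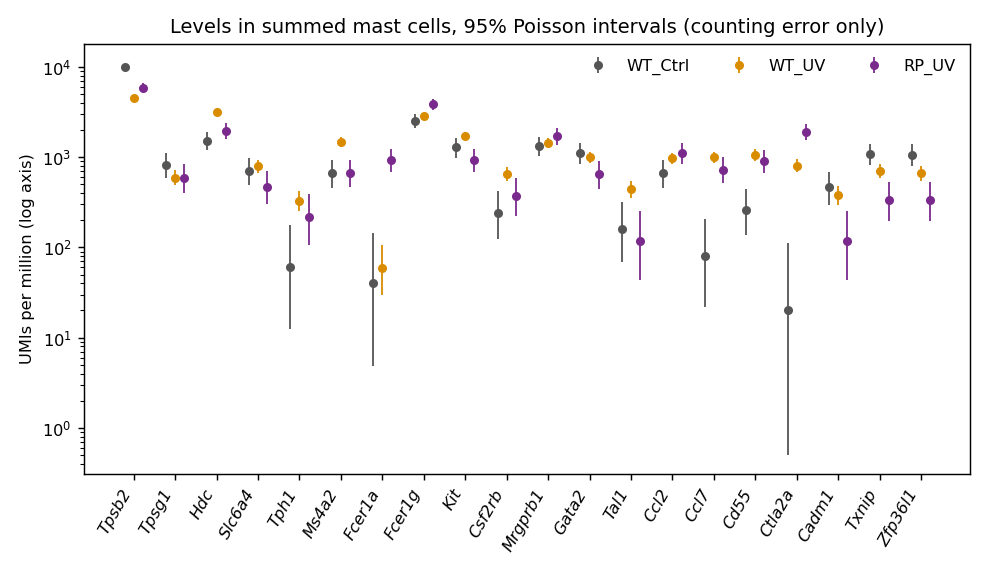
Levels of 20 named genes in the summed mast cells of each library, in CPM on a log axis, with exact Poisson 95% intervals. Fcer1a lies higher in RP_UV (920 CPM) than in both wild-type libraries (40.1 and 59 CPM), and Ctla2a lies lower in WT_Ctrl (20.1 CPM) than in both irradiated libraries.

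Genes of the IgE receptor differed between the irradiated libraries in opposite directions. Fcer1a had 2 UMIs in 2 WT_Ctrl cells, 11 UMIs in 7 of 88 WT_UV cells and 47 UMIs in 13 of 34 RP_UV cells, which gave 40.1 (4.86 to 145), 59 (29.4 to 106) and 920 (676 to 1223) CPM. The RP_UV level was 15.6 times that of WT_UV (7.97 to 33.3). The 3 cells richest in Fcer1a held 23 of the 47 UMIs, and the log2 difference of 3.75 was 3.15 to 4.04 over the alternatives. After thinning to 500 UMIs a cell, Fcer1a was seen in 1 of 32 WT_Ctrl, 0 of 88 WT_UV and 9 of 34 RP_UV cells, where 0 of 88 allows a share of up to 3.41%. Ms4a2 showed another order, at 662 (455 to 929) CPM in WT_Ctrl, 1464 (1295 to 1648) in WT_UV and 665 (461 to 930) in RP_UV. It was thus 2.21 times as high in WT_UV as in WT_Ctrl (1.54 to 3.28) and 2.2-fold lower in RP_UV than in WT_UV (1.54 to 3.24). These log2 differences of 1.13 and -1.13 lost the 2-fold mark in several alternatives, at 0.49 and -0.67 with cells thinned to 500 UMIs and at 0.96 and -0.95 without the deepest cell of each library. Fcer1g, the shared signalling gamma chain, was 2506, 2826 and 3836 CPM and was found in 32 of 32, 83 of 88 and 34 of 34 cells. Both Fcer1a and Ms4a2 belong to the 7 genes the rule reads, but each of the 154 cells would have been chosen without Fcer1a, as it carried at least 3 of the remaining 6 genes.

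The RP_UV cells with Fcer1a carried other mast cell genes. Their granule protease sums were 55 to 578 UMIs (median 98) against 26 to 538 UMIs (median 82) in the 21 cells without it, and their median depths were 1328 and 1016 UMIs. The mitochondrial share of UMIs moved with this split, with a median of 2.58% in the cells with Fcer1a and 0.642% in those without, and all 5 RP_UV cells above 4% carried Fcer1a. The part of this share in the Fcer1a level was not tested. Mrgprb1 was found in 12 of the 13 cells with Fcer1a and 18 of the 21 without, Ms4a2 in 11 and 13, and Kit in 9 and 11. Gata2 was found in 4 and 11 cells and Il4 in 0 and 5, and the basophil protease gene Prss34 in none of either set. The 3 RP_UV cells counted as basophils by Mcpt8 had 0 Fcer1a UMIs and the 11 of WT_UV had 28. This split of cells was chosen after their values were seen.

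Signalling genes downstream of the receptor were sparse. Pilra, an inhibitory receptor gene, stood at 180, 526 and 352 CPM, called higher in WT_UV over WT_Ctrl although its log2 difference fell from 1.49 to 0.38 with cells thinned to 500 UMIs. Lyn, the kinase that phosphorylates the receptor, had 10, 38 and 2 UMIs, 5.21-fold lower in RP_UV than in WT_UV with a wide interval (1.35 to 44.5). Syk, which acts next, had 3, 13 and 2 UMIs, too few to compare. Lat2, an adaptor, stood at 441, 456 and 489 CPM. Over the list of 20 genes, 3 of 11 were called higher in WT_UV over WT_Ctrl (Ms4a2, Fyn and Pilra) and none lower. In RP_UV over WT_UV 1 of 12 was called higher (Fcer1a) and 2 lower (Ms4a2 and Lyn), and in RP_UV over WT_Ctrl 2 of 7 higher (Fcer1a and Cd200r3), with medians of 0.17, -0.19 and 0.61. The last median ran from -0.01 to 0.72 over the alternatives. Fyn, at a log2 difference of 1.29, fell under 2-fold in 5 of 16 alternatives (lowest 0.42). Cd200r3, at 1.06, did so in 6 of 16 (lowest 0.36).

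Of the 7 genes with enough UMIs on the list of surface receptor and survival genes, Csf2rb alone differed by 2-fold or more. Receptor genes outside this list, such as Calcrl, are given in other paragraphs. Kit, the receptor for stem cell factor, stood at 1283 (988 to 1638) CPM in WT_Ctrl, 1716 (1533 to 1914) in WT_UV and 920 (676 to 1223) in RP_UV. It was 1.87-fold lower in RP_UV than in WT_UV (1.37 to 2.59). Csf2rb, the common beta chain of the IL-3 and GM-CSF receptors, was 241, 654 and 372 CPM, 2.72 times as high in WT_UV as in WT_Ctrl (1.5 to 5.41). Mrgprb1 stood at 1323, 1442 and 1703 CPM and Mrgprb2 at 281, 311 and 313 CPM. Within cells the 2 genes overlapped in part, with 8, 29 and 9 cells carrying both, 15, 44 and 21 Mrgprb1 alone and 2, 4 and 0 Mrgprb2 alone. Il1rl1, the IL-33 receptor, stood at 201, 166 and 215 CPM, and the adenosine receptor gene Adora3 at 261, 413 and 274 CPM. Of the list 1 of 7 was called in WT_UV over WT_Ctrl and none of 7 in either other comparison.

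Receptors for prostaglandins were at the edge of detection in mast cells. Ptger3, a PGE2 receptor gene, had 1, 3 and 1 UMIs, Ptger4 had 0, 2 and 0, and Ptger2 had none in any library, which allows up to 16.1 CPM in WT_UV. The other kept cells held 2.78 CPM of Ptger2 in that library, under this limit. The PGD2 receptor genes Ptgdr and Ptgdr2 had no UMI in any library. Differences were not detectable at this depth.

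Ptgs2 itself, the gene overexpressed in RP mice, was hardly detected in mast cells. It had 0 UMIs in WT_Ctrl, 4 UMIs in 1 WT_UV cell and 4 UMIs in 1 RP_UV cell, against 14.4, 118 and 487 CPM in the other cells of the libraries. At the level of those other cells the WT_UV mast cells would have shown 22 UMIs and the RP_UV mast cells 24.9. The RP_UV cell also carried transcripts of another cell type, and without such cells RP_UV mast cells had no Ptgs2 UMI. Of the remaining eicosanoid genes, Hpgds, the hematopoietic prostaglandin D synthase, was 501 (324 to 740), 424 (335 to 528) and 274 (150 to 460) CPM, above the 61.8 to 94.9 CPM of other cells. Ptgs1, Ptges, Alox5 and Ltc4s had at most 1 UMI in any library. None of 3, none of 4 and none of 1 eicosanoid genes with enough UMIs were called in WT_UV over WT_Ctrl, RP_UV over WT_UV and RP_UV over WT_Ctrl.

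Among chemokines, Ccl7 was higher in both irradiated libraries. Ccl7, which attracts monocytes, had 4 UMIs in 2 WT_Ctrl cells, 185 UMIs in 26 WT_UV cells and 37 UMIs in 14 RP_UV cells, or 80.2 (21.9 to 205), 992 (854 to 1146) and 724 (510 to 998) CPM. WT_UV stood 12.4 times as high as WT_Ctrl (4.75 to 45.9) and RP_UV 9.03 times (3.24 to 34.9), with 61 of the WT_UV UMIs in 1 cell. The level also moved in the other kept cells, at 48.2, 134 and 367 CPM, and reached 738 CPM in RP_UV macrophages. Whether free RNA of other cells entered these counts was not tested. Ccl2, encoded beside Ccl7 (chr11:82035577-82037452 and chr11:82045712-82047525, GRCm38.p6), differed by less than 2-fold, at 662 (455 to 929), 971 (834 to 1123) and 1116 (845 to 1445) CPM, and was found in 17, 59 and 18 cells. Cells with both numbered 1, 20 and 11, cells with Ccl2 alone 16, 39 and 7, and cells with Ccl7 alone 1, 6 and 3.

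Most cytokines were rare. Tnf stood at 301, 381 and 372 CPM and Tgfb1 at 261, 279 and 294 CPM, close in the 3 libraries, and Il4 at 201, 188 and 117 CPM against 1.41 to 3.71 CPM in other cells. Vegfa, the vascular growth factor gene, had 12 UMIs in 9 WT_Ctrl cells, 33 UMIs in 18 WT_UV cells and 1 UMI in RP_UV, 9.04-fold lower in RP_UV than in WT_UV but with an interval from 1.51 to 368. Il6 and Il13 had at most 5 UMIs in a library. Cxcl2, a neutrophil chemokine, had 1, 10 and 17 UMIs, of which 16 in RP_UV came from 1 cell, and stood below the 52.4, 490 and 1851 CPM of other cells. Of 30 genes, 2 of 7 were called higher in WT_UV over WT_Ctrl (Ccl7 and Csf1), 1 of 8 higher and 1 lower in RP_UV over WT_UV (Cxcl2 and Vegfa), and 1 of 4 higher in RP_UV over WT_Ctrl (Ccl7). The log2 difference of Csf1, 1.35, fell under 2-fold in 4 of 16 alternatives (lowest 0.07), and was 0.72 without the deepest cells. Without cells of another type the log2 difference of Cxcl2 turned from 2.43 to -2.76.

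Of 7 lineage transcription factor genes with enough UMIs, 3 were called lower in RP_UV than in WT_UV (Tal1, Mitf and Meis2), against 13.6% of all genes. The other 4 did not pass 2-fold, and the log2 differences of all 7 ran from -2.07 to -0.17 with a median of -0.61. Tal1, which acts in early blood and mast cell formation, had 160, 440 and 117 CPM, 3.74-fold lower in RP_UV than in WT_UV (1.65 to 10.5). Mitf, a master regulator of mast cells and melanocytes, had 140, 279 and 58.7 CPM from 7, 52 and 3 UMIs. Meis2, a homeobox factor gene, stood at 341, 504 and 176 CPM, 2.86-fold lower (1.45 to 6.45). Gata2 stood at 1103 (831 to 1435), 992 (854 to 1146) and 646 (445 to 907) CPM. In WT_UV over WT_Ctrl 2 of 8 were called higher (Tal1 and Fli1). Neither call held with cells thinned to 500 UMIs, where the log2 difference of Tal1 fell from 1.4 to 0.43 and that of Fli1 from 1.25 to -0.13, and the list's median of 0.42 ran from -0.14 to 0.75 over the alternatives. For the list in RP_UV over WT_Ctrl, none of 3 were called (median -0.76). The scale matters here, since the median-ratio scale lowers RP_UV over WT_UV values by up to 0.24, and by less where RP_UV levels are near the pseudocount.

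Immediate early and stress genes, which tissue digestion is known to induce, were abundant in every library. Fos stood at 3268, 3008 and 2681 CPM, Jun at 3428, 3721 and 3640 CPM, and Egr1 at 4009, 2214 and 2251 CPM. Ier2 was 1584, 601 and 783 CPM, 2.64-fold lower in WT_UV than in WT_Ctrl (1.95 to 3.55), and Nfkbia, the inhibitor of NF-kappaB, was 1544, 617 and 939 CPM, 2.5-fold lower (1.85 to 3.37). In the opposite direction lay Rgs1 at 601, 1239 and 822 CPM and Klf6 at 882, 1753 and 1076 CPM. In WT_UV over WT_Ctrl, Klf6 at a log2 difference of 0.98 was not called, and Rgs1 at 1.03 fell under 2-fold in 6 of 16 alternatives (lowest 0.41). Nfkbia, at -1.31, did so in 3 of 16 (to -0.67), while Ier2 ran from -1.72 to -1.25. Of 24 genes in WT_UV over WT_Ctrl, 4 were called higher and 3 lower (median -0.12), and of 23 in RP_UV over WT_UV none higher and 3 lower (median -0.17). Of 19 genes in RP_UV over WT_Ctrl 1 was called higher and 3 lower, while 15 had a log2 difference below 0 and 4 above it, with a median of -0.46 that ran from -0.58 to -0.23 over the alternatives.

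Genes that answer to cyclic AMP, the messenger of several PGE2 receptors, lay lower in RP_UV than in WT_UV for 6 of 7 genes (median -0.8), of which 3 were called (Dusp1, Rgs2 and Fosl2, of which Fosl2 went from -1.17 to 0.05 with cells thinned to 500 UMIs). Dusp1, Rgs2, Nr4a1, Nr4a2 and Nr4a3 are also on the list of immediate early genes. Rgs2, a G protein regulator, stood at 922, 901 and 333 CPM, 2.71-fold lower in RP_UV than in WT_UV (1.64 to 4.76), and was also lower than in WT_Ctrl. Dusp1, a phosphatase of MAP kinases, was 1864, 2563 and 1155 CPM, 2.22-fold lower (1.69 to 2.96), with a log2 difference of -0.82 once WT_UV was thinned to the depth of WT_Ctrl. Crem, the cyclic AMP response modulator, went the other way with 4, 19 and 8 UMIs. In the other kept cells Rgs2 was 223, 375 and 98 CPM and Dusp1 503, 638 and 517 CPM, so the order of Rgs2 between irradiated libraries was alike in cells outside this type. In WT_UV over WT_Ctrl 2 of 9 were called higher (Nr4a1 and Nr4a2) and 1 lower (Gem), with a median of 0.46, and in RP_UV over WT_Ctrl 1 of 2 was called lower.

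Adhesion and secretory genes were mostly too sparse to compare. Cadm1, which binds mast cells to nerves and fibroblasts, had 461, 381 and 117 CPM, and was 3.93-fold lower in RP_UV than in WT_Ctrl (1.55 to 11.8), with a log2 difference of -1.89 that was -0.48 with cells thinned to 500 UMIs. Itga9, an integrin gene, had 5, 23 and 0 UMIs. Cd44, the hyaluronan receptor, was 120, 332 and 215 CPM, and called higher in WT_UV over WT_Ctrl. Cd9, a tetraspanin gene, stood at 281, 42.9 and 274 CPM, but 9 of its 14 UMIs in WT_Ctrl came from 1 cell, and without cells of another type its log2 difference in RP_UV over WT_UV went from 2.42 to -0.31. Over the adhesion list 2 of 8 were called higher and 1 lower in WT_UV over WT_Ctrl, 1 of 8 higher and 3 lower in RP_UV over WT_UV, and 1 of 3 lower in RP_UV over WT_Ctrl. Rab27b, which docks granules at the membrane, stood at 481, 499 and 587 CPM, and Vamp8, a granule fusion protein gene, stood at 321, 279 and 196 CPM. Of the secretory list 1 of 6 was called higher in WT_UV over WT_Ctrl (Lamp2), 1 of 6 lower in RP_UV over WT_UV (Snap23, at -1.01 on the log2 scale and at 1.07 with cells thinned to 500 UMIs), and none of 2 in RP_UV over WT_Ctrl.

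**Figure D5:**
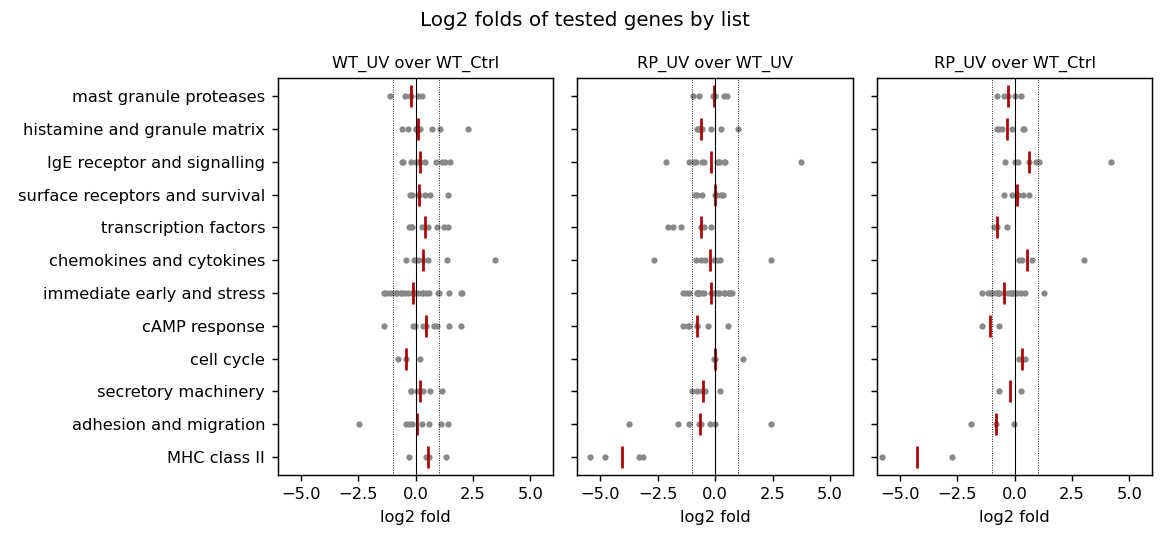
Log2 differences of the tested genes of 12 gene lists (grey points) with the list median (red bar), in each comparison of 2 libraries, with dotted lines at a 2-fold difference. MHC class II lies lowest in both comparisons that hold RP_UV, at medians of -4.05 and -4.25, and the median of every other list shown lies between -1.07 and 0.61.

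MHC class II transcripts, which antigen-presenting cells make, were few in mast cells and fewest in RP_UV. The 7 genes summed to 1363 CPM from 68 UMIs in WT_Ctrl, 1694 CPM from 316 UMIs in WT_UV and 78.3 CPM from 4 UMIs in RP_UV. In the other kept cells the sums were 31550, 27930 and 6752 CPM, so both populations were lower in RP_UV. Within mast cells few cells held most of these UMIs, with 101 of 125 Cd74 UMIs and 52 of 81 H2-Aa UMIs of WT_UV in 1 cell each. All 4 tested genes were called lower in RP_UV over WT_UV, with a median of -4.05, or -2.92 with genes at 0 set to the limit of 3 counts. When mast cells were chosen after thinning to 1000 UMIs the median was -1.27. Whether these UMIs came from mast cells or from free RNA of other cells was not tested.

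Other programmes were near the detection limit. Of 16 p53 target genes, Cdkn1a, which halts the cell cycle, stood at 481 (308 to 716), 922 (790 to 1071) and 783 (559 to 1066) CPM, and Bax, a death effector, had 1, 20 and 6 UMIs. Both had enough UMIs in WT_UV over WT_Ctrl, and Bax was called higher there from 1 UMI in WT_Ctrl. Of cell cycle genes Mki67 had 0, 1 and 3 UMIs and Top2a 0, 0 and 3, and Stmn1, at 12, 26 and 17 UMIs, was 1 of 3 genes with enough UMIs and was called higher in RP_UV over WT_UV, with 8 of its RP_UV UMIs in 1 cell. The interferon gene Isg15 had 0, 8 and 1 UMIs, and the 24 Ifitm3 UMIs of RP_UV lay in 5 cells with 17 in 1 of them. Ifitm3 was the interferon gene called higher in RP_UV over WT_UV (1 of 2) and over WT_Ctrl (1 of 1), and the latter log2 difference went from 1.67 to -0.98 without cells of another type. Clock output genes were counted with 15, 72 and 23 UMIs over the whole list, and the 1 gene with enough UMIs, Tef, was not called.

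Beyond the lists, the genes with the largest differences were named by a rule of size, which required at least 5 mast cells of the higher library and a level no lower than in its other kept cells. Ctla2a, a cysteine protease inhibitor gene, led WT_UV over WT_Ctrl and RP_UV over WT_Ctrl. It had 1 UMI in WT_Ctrl, 150 UMIs in 25 WT_UV cells and 98 UMIs in 14 RP_UV cells, or 20.1, 804 and 1918 CPM, and RP_UV was 2.39 times WT_UV (1.83 to 3.1). This last log2 difference of 1.24 was 0.98 without the richest cell of each library and 0.9 without the cells that carried transcripts of another type. In thinned cells its share was 3.12%, 14.8% and 26.5%, against 3.98%, 7.26% and 6.74% of other cells, and 1 cell held 30 of the WT_UV and another 36 of the RP_UV UMIs. Its near copy Ctla2b had only 0, 4 and 5 UMIs. For RP_UV over WT_Ctrl the log2 difference was 4.81 to 7.13 over the alternatives.

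Cd55, which protects cells from complement, was higher in both irradiated libraries. It stood at 261 (139 to 446), 1056 (914 to 1215) and 900 (659 to 1201) CPM and was found in 9 of 32, 63 of 88 and 23 of 34 cells. The ratios to WT_Ctrl were 4.05 (2.32 to 7.75) in WT_UV and 3.45 (1.83 to 6.97) in RP_UV, while the other kept cells stood at 42.3, 22.6 and 45.5 CPM. The log2 differences were 1.39 to 2.11 and 1.19 to 1.99 over all alternatives. In thinned cells the shares with Cd55 were 15.6%, 40.9% and 47.1%, against 1.69%, 1.23% and 2.0% of other cells.

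Of the remaining genes named in WT_UV over WT_Ctrl, Mindy2, Ecm1, Tuba1c, Arfgef1, Pkn2 and Supt20 were next among the higher and had 20 to 28 UMIs in WT_UV and none in WT_Ctrl, where 0 allows up to 60.1 CPM, so their 107 to 150 CPM in WT_UV bound the ratio only weakly. These genes met the limit of 20 UMIs through WT_UV alone. The lowest was Krtdap, a keratinocyte gene, of which 64 of 69 WT_Ctrl UMIs came from 1 cell, and without the richest cells its log2 difference was -0.7 in place of -4.03. Slain2, Cul5, Tgs1, Reep3, Wasf2, Ctcf and R3hdm2 followed with 10 to 23 UMIs in WT_Ctrl, and Tgs1 and Wasf2 changed direction when cells were thinned to 500 UMIs.

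In RP_UV over WT_UV the highest genes were Dut, Eif3i, Ranbp1, Imp3, Psmb2, Cuta, Fkbp2 and Trp53, at 10 to 21 UMIs in RP_UV. Dut, which clears dUTP, had 42.9 and 254 CPM with 7 of 13 RP_UV UMIs in 1 cell, and Ranbp1, a cofactor of nuclear transport, 96.5 and 411 CPM. Among the lowest, Clec2d, Dock2, Ptpn12, Calcrl, Dennd6a, Itga9 and Dennd1b had 22 to 33 UMIs in WT_UV and none in RP_UV, where 0 allows up to 58.7 CPM. Calcrl, the receptor for calcitonin gene-related peptide of sensory nerves, was among them with 25 UMIs in 18 WT_UV cells and 5 UMIs in WT_Ctrl.

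In RP_UV over WT_Ctrl, the comparison between libraries of alike depth, the higher genes after Ctla2a and Ccl7 were Cox7b, Atp5f1, Rexo2, Ccnd2, Tagln2 and Cd55. Cox7b and Atp5f1 belong to the mitochondrial respiratory chain and ATP synthase, at 80.2 and 431 CPM and at 201 and 900 CPM in WT_Ctrl and RP_UV. Ccnd2, a G1 cyclin gene, stood at 140 and 509 CPM. The lowest after Krtdap were Reep3, Slc5a3, Luc7l2, Eif4a2, Cadm1, Txnip and Zfp36l1. Txnip, which binds thioredoxin and restrains glucose uptake, was 1083 (813 to 1412) CPM in WT_Ctrl, 708 (592 to 839) in WT_UV and 333 (194 to 533) in RP_UV. Macrophages held 981, 596 and 416 CPM of it. Zfp36l1, an RNA-binding protein gene that speeds decay of short-lived transcripts, was 1063 (796 to 1390), 660 (548 to 787) and 333 (194 to 533) CPM, 3.19-fold lower in RP_UV than in WT_Ctrl (1.82 to 5.88). Reep3 changed direction, to 0.11, when mast cells were chosen after thinning to 1000 UMIs.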

How the data were processed

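For each library the deposited matrix holds unnormalized UMI counts of genes in cells, which the submitters' processing notes trace to Cell Ranger 6.1.1 and mm10. Each matrix held 32285 genes. Cells were kept as in the methods of the study, with a mitochondrial share under 10% and more than 200 and fewer than 4000 genes (6000 in WT_UV). Counts of the mast cells of a library were summed and divided by their total. Levels have exact Poisson intervals, shares Wilson intervals and ratios conditional binomial intervals, all at 95% and for counting error only. Log2 differences used a pseudocount of 10 CPM. No doublet caller was run, and cells with transcripts of another type were left out as an alternative. Genes were named where a gene of 26 lists had at least 10 UMIs, and by the 8 largest differences in each direction, seen in at least 5 cells of the higher library at a level no lower than in its other cells. The mast cells, the lists and these rules were chosen with earlier results of these data known. Whether strand was used in counting is not given in the sources used here. Promoters were matched by symbol to RefSeq. The calculation of differences was tested on simulated data. Python 3.11.15, numpy 2.4.6, scipy 1.17.1, pandas 2.3.3 and matplotlib 3.10.9 were used. Alternatives covered the choice of cells, denominator, pseudocount, filter, scale, depth and single cells. A few genes that met the naming rule are not reported here.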

Additional observations from a re-analysis of the deposited data

Results flagged for a closer look

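In WT_UV, 2 deposited barcodes met the mast cell rule but failed the quality filter, with mitochondrial shares of 10.17% and 12.04% of their UMIs, and entered no comparison. No such barcode was found in WT_Ctrl or RP_UV.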

How the results depend on the processing

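With 1 library in a group, no paired analysis was possible because no group has replicates. The share of mast cells in WT_UV over WT_Ctrl was 4.88 times when cells were chosen after thinning to 1000 UMIs and 4.39 times with cells of at least 1000 UMIs (added after seeing the data), and 22 of 24 share values moved by less than their interval. Counts of called genes depend on depth and filter. For WT_UV over WT_Ctrl, higher and lower, they were 2444 and 1542 with no filter, 76 and 13 at 50 UMIs, 137 and 41 at a pseudocount of 50, 128 and 37 with WT_UV thinned (added), 61 and 28 with cells thinned to 500 UMIs, and 118 lower with a mean over cells. For RP_UV over WT_UV they were 1491 and 2524, 28 and 73, 78 and 140, 69 and 105, and 47 and 49 for the first 5 of these settings, with 70 higher on the median-ratio scale and 188 higher without the limits on Mcpt8 and C1q. For RP_UV over WT_Ctrl they were 2447 and 2568 with no filter, 29 and 12 at 50 UMIs, 22 and 10 with cells thinned to 500 UMIs and 156 and 86 without the limits. Of 117 called differences among the genes recomputed, 59 fell under 2-fold in at least 1 alternative and 13 changed direction. Differences under 2-fold changed direction more widely, so that in all 115 of 339 gene values and 16 of 29 list medians did so in at least 1 alternative. With cells thinned to 500 UMIs, WT_UV over WT_Ctrl was 0.48 for Tgs1, 0.11 for Wasf2 -0.13 for Fli1 and -0.45 for Maob, RP_UV over WT_UV 0.71 for Mindy2, 1.07 for Snap23, 0.05 for Fosl2 and -0.85 for Ctcf, and RP_UV over WT_Ctrl 0.82 for Tgs1, 0.82 for Wasf2 and -0.08 for Clec12b. With cells chosen after thinning, RP_UV over WT_Ctrl was 0.11 for Reep3 and -2.09 for Nr4a2. Without cells of another type, RP_UV over WT_UV was -1.73 for Ptgs2, -2.76 for Cxcl2 and -0.31 for Cd9, and RP_UV over WT_Ctrl -0.98 for Ifitm3. The cause was not tested.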

Other observations

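Nuclear genes of the respiratory chain and ATP synthase, a set chosen after the values of Cox7b and Atp5f1 were seen, held 1.47% of mast cell UMIs in WT_Ctrl, 1.98% in WT_UV and 2.24% in RP_UV. As the set came from these same data, its values are a description and not a test of the set. Of 62 such genes in WT_UV over WT_Ctrl, 16 were 2-fold or more higher and 1 lower, against 13.9% and 3.93% of all genes. Their median log2 difference was 0.5 against 0.17 over all genes. Of 43 in RP_UV over WT_Ctrl, 8 were higher and 1 lower, against 12.5% and 7.15% of all genes. Here the median was 0.62 against 0.1 over all genes. Of 63 in RP_UV over WT_UV, 4 were higher and 5 lower, against 6.31% and 13.6% of all genes, with a median of 0.18 against -0.08. In the same order of comparisons the medians of this set were 0.19, 0.35 and 0.22 in macrophages and 0.1, 0.41 and 0.29 in the other kept cells. Medians over all genes in those cells are not given here. Cytosolic ribosomal protein genes, the other large set of housekeeping genes, held 14.1%, 14.0% and 13.9% of mast cell UMIs. Their medians were -0.14 in WT_UV over WT_Ctrl and -0.01 in RP_UV over WT_Ctrl. In RP_UV over WT_UV their median was 0.2, close to the 0.18 of the respiratory set.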
